A study of Mus musculus with 12 samples.

Results

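Hepatokines are proteins that the liver secretes to act on metabolism elsewhere in the body, and 8 genes for such proteins were followed here in the livers of mice in which the long noncoding RNA mGULL was knocked down. The genes were Fetub, Rbp4, Selenop, Enho, Angptl6, Angptl8, Gdf15 and Inhbe. They were chosen by name as liver-secreted regulators of metabolism, leaving out Fgf21 and Angptl4, and each of the 8 names matched 1 protein-coding gene among the 55385 features of the table. All 8 had a mean of at least 1 TPM (a transcript level corrected for gene length and scaled to the same total in every sample), as did 16378 features in all, and no member was lost to that filter.

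Liver RNA of male C57BL/6 mice was sequenced in 12 samples, 4 per group, to ask what loss of mGULL changes and whether its human counterpart hGULL restores it. Every group was injected at 7 weeks of age with adenovirus totalling 500000000 plaque-forming units and liver was collected on day 7. Control mice received the Lac and pAdV5 viruses, knockdown mice a virus carrying a short hairpin RNA against mGULL (Ad-shmGULL) with pAdV5, and rescue mice Ad-shmGULL with a virus expressing hGULL. No group was without virus, so a response common to all adenovirus-infected livers cannot be seen in these comparisons. Each virus was delivered to the animal as a whole, and cells of the liver other than hepatocytes were not separated from them. The study's methods describe the route of injection in 2 ways, as retro-orbital and as intravitreal. The samples are called mice below, although the labels do not state that each came from a separate animal. The levels of mGULL and hGULL were not analysed here, so the knockdown and the rescue were not checked in these values. The number of reads behind a TPM value is unknown, and precision is given by the spread between the 4 mice of a group.

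Fetuin-B, retinol-binding protein 4 and selenoprotein P, the products of Fetub, Rbp4 and Selenop, are abundant plasma proteins made by hepatocytes. Retinol-binding protein 4 carries retinol in complex with transthyretin, and selenoprotein P carries selenium to other tissues. Enho encodes adropin, a small peptide linked to fuel choice. The angiopoietin-like protein encoded by Angptl8 takes part in the control of lipoprotein lipase, and its transcript responds to feeding and insulin. Gdf15 and Inhbe encode members of the transforming growth factor β superfamily. GDF15 signals appetite loss through its brainstem receptor GFRAL and is induced by cell stress, and activin E, the product of Inhbe, acts on adipose tissue through activin receptors.

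The promoters of the members were searched for known response elements. RefSeq promoter windows on GRCm38.p6, from 250 bases before to 50 bases after a start of transcription, matched 7 of the 8 genes with 12 windows, and Enho had no entry. The letters TGATGNAA, the composite element bound by C/EBP and ATF factors, were searched on both strands and occurred in 3 of the 12 windows and in 3.97% of all 32851 windows. In Angptl8 the match began 130 bases before the start, in Inhbe it lay on the opposite strand with its first base 181 before, and in Rbp4 it began 76 before. The E-box letters CACGTG occurred in 1 of the 12 windows, 83 bases before a start of Gdf15, and in 7.15% of all windows. The matches are in capitals in the stretches below, which run 5′ to 3′ along the gene's own strand. The Angptl8 stretch is chr9:21835340-21835427 on the plus strand and the Inhbe stretch is chr10:127351982-127352069 on the minus strand. The Rbp4 stretch is chr19:38125350-38125437 and the Gdf15 stretch is chr8:70632133-70632218, both on the minus strand.
Angptl8: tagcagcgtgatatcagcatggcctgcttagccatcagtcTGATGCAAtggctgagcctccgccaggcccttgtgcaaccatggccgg
Inhbe: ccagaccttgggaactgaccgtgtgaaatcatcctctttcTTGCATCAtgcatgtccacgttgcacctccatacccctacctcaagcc
Rbp4: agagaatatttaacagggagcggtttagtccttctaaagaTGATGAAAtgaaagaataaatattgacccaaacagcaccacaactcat
Gdf15: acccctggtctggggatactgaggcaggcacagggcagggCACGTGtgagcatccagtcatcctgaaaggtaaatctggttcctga

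The full cAMP response element TGACGTCA, held by 1.79% of all windows, and the sterol regulatory element TCACNCCAC, held by 1.24%, occurred in 0 of the 12 windows. The shorter cAMP response form TGACG, which lies within the full element, occurred in 5 of the 12, and in 20.8% of all windows. The 5 were 3 overlapping windows of Selenop, which hold the same single site, and 1 window each of Fetub and Rbp4. These matches describe letters in a window and say nothing of factor binding in these livers.

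After knockdown, the members as a group did not move in 1 direction. The transcripts of Enho (adropin) and Fetub (fetuin-B) fell, 2 of 8 genes past the study's threshold. That threshold is an unadjusted P under 0.05 and a log2 fold change of more than 0.5 either way. Of all tested genes, 2.30% were past it in the lower direction. No member rose past it, against 5.35% of all tested genes. With limma's Benjamini-Hochberg adjustment over all tested genes, 0 of 8 had an adjusted p under 0.05, against 3.23% of all genes. The unadjusted p was under 0.05 for 2 of the 8 and for 3316 of the 16378 tested genes. The count behind that 3.23%, 529 genes, ran from 33 to 1055 under the alternative settings. The median log2 fold change of the members was 0.10, beside 0.09 over all tested genes, and the median absolute change was 0.37 beside 0.17. The plot of levels by mouse shows all 8 members in every animal.

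**Figure D1:**
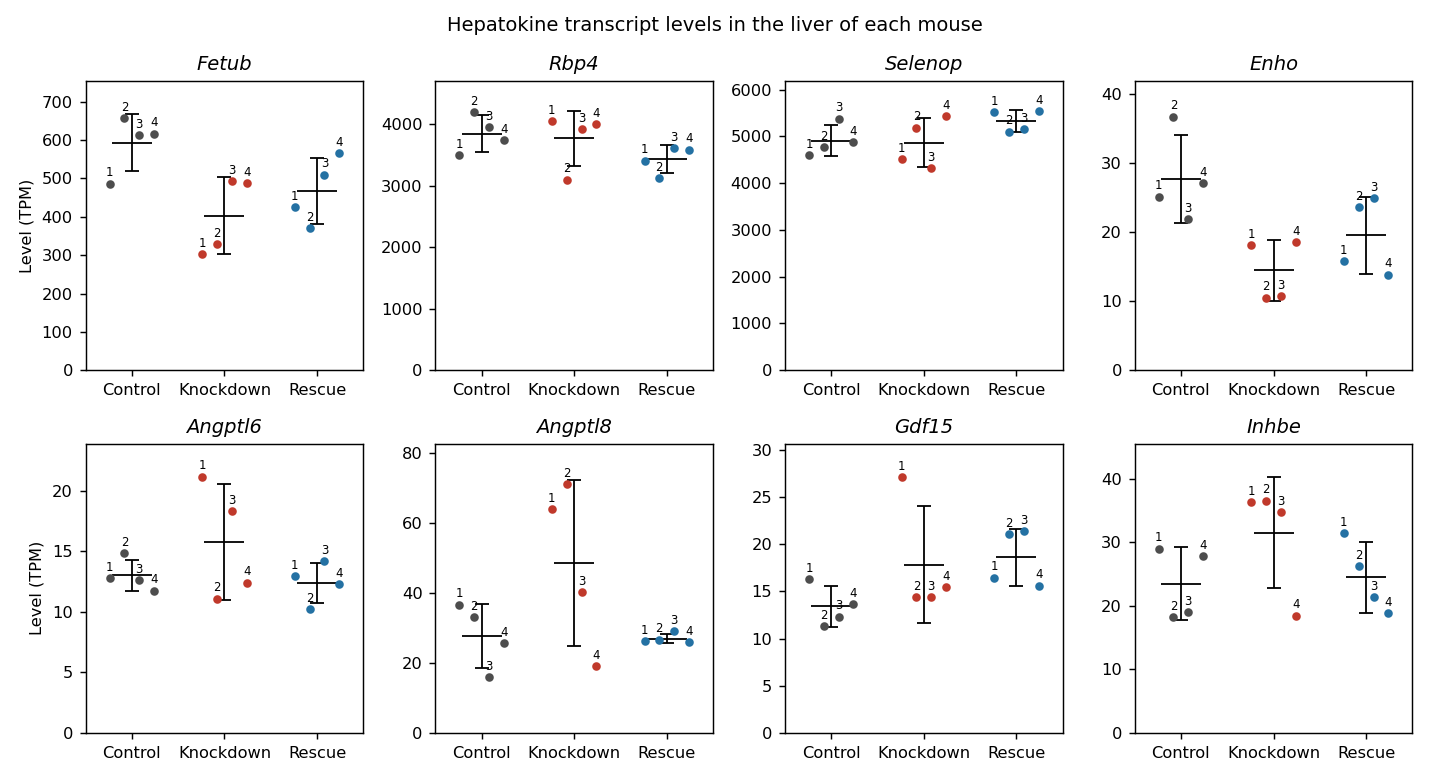
Level of each hepatokine transcript in TPM (linear axis from 0) in the 4 control, 4 knockdown and 4 rescue mice. Points are mice, numbered by replicate, and bars are the group mean ± SD. Enho was at most 18.5 TPM in knockdown mice and at least 21.9 TPM in control mice, and Angptl8 and Inhbe were lowest in replicate 4 of the knockdown mice.

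The members differed widely in level. Averaged over the 12 mice, Selenop stood at 5033 TPM and Rbp4 at 3685 TPM, places 22 and 29 from the top among the tested genes, and Fetub at 488.0 TPM was at place 228. Selenop exceeded Rbp4, and Rbp4 exceeded Fetub, in every one of the 12 mice. The other 5 were lower, with means of 34.5 TPM for Angptl8, 26.5 TPM for Inhbe, 20.6 TPM for Enho, 16.6 TPM for Gdf15 and 13.7 TPM for Angptl6. In that order, the range over mice of each of the 5 overlapped that of the next, so their order is not fixed beyond the spread. The spread within groups also differed. The residual SD on the log2 scale was 0.11 for Selenop and 0.14 for Rbp4, and 0.57 for Angptl8, which was above that of 93.7% of tested genes or equal to it.

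Fetub, on the plus strand of chromosome 16 (chr16:22918382-22939768 in RefSeq on GRCm38.p6), was at 486.7, 657.6, 612.1 and 616.8 TPM in control mice 1 to 4. It was at 303.1, 329.6, 493.0 and 487.3 TPM in knockdown mice and at 424.9, 369.9, 510.0 and 565.2 TPM in rescue mice. Knockdown mice 1 and 2 lay below every control mouse, and knockdown mice 3 and 4 lay close to control mouse 1, the lowest control, so that the groups overlapped. The mean was 593.3 ± 73.96 TPM (SD, n = 4) in control, 403.3 ± 100.9 TPM (SD, n = 4) in knockdown and 467.5 ± 86.94 TPM (SD, n = 4) in rescue. Fetub fell by 0.58 ± 0.18 (SE) on the log2(TPM + 1) scale after knockdown (95% interval -0.97 to -0.19, limma adjusted p = 0.0957). Without knockdown replicate 1 the value was -0.46 and without knockdown replicate 2 it was -0.50, and in both cases, as with array weights (-0.47), Fetub was no longer past the study's threshold. The rescue minus knockdown value was 0.23 (95% interval -0.16 to 0.62, limma adjusted p = 0.643), with 0.08 to 0.34 under the alternatives.

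Rbp4 was at 3499, 4196, 3955 and 3744 TPM in control mice, at 4050, 3103, 3928 and 4011 TPM in knockdown mice and at 3410, 3125, 3615 and 3592 TPM in rescue mice. Knockdown mouse 2 was the lowest of all 12 animals, and the other 3 knockdown mice lay within the control range. The log2 fold change was -0.03 for knockdown minus control (95% interval -0.29 to 0.23) and -0.16 for rescue minus control (95% interval -0.42 to 0.10). Selenop, the most abundant member, was at 4607, 4776, 5381 and 4870 TPM in control mice, at 4516, 5187, 4323 and 5426 TPM in knockdown mice and at 5512, 5100, 5157 and 5541 TPM in rescue mice. The knockdown range enclosed the control range, and all rescue mice lay within or above it. Its log2 fold change was -0.02 after knockdown (95% interval -0.27 to 0.24) and 0.14 from knockdown to rescue (95% interval -0.12 to 0.39), so a change beyond 0.5 in either direction lay outside both intervals. The 3′ end of Selenop overlaps Ccdc152 on the opposite strand by 412 bp, and Ccdc152 averaged 3.90 TPM, so reads that could belong to either were left uncertain. In GENCODE vM39 (GRCm39), Selenop shares 1193 exon bases with Ccdc152. Rbp4 shares 222 exon bases there with Ffar4 on the opposite strand, which averaged 0.980 TPM. Exons of Fetub, Gdf15 and Inhbe there overlap genes on the opposite strand, Gm30611, Gm34154 and Gm66251, that are not named in the table used here.

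Enho had the largest change of the members from control to knockdown when all mice were used. Control mice had 25.2, 36.8, 21.9 and 27.1 TPM of this adropin transcript, knockdown mice 18.2, 10.5, 10.8 and 18.5 TPM, and rescue mice 15.8, 23.7, 24.9 and 13.8 TPM. Every knockdown mouse was below every control mouse, a separation in the lower direction found for 2.06% of tested genes and for this 1 member. The rescue mice spread between the groups, with replicates 2 and 3 inside the control range and replicates 1 and 4 inside the knockdown range. The mean was 27.8 ± 6.37 TPM (SD, n = 4) in control, 14.5 ± 4.45 TPM (SD, n = 4) in knockdown and 19.6 ± 5.56 TPM (SD, n = 4) in rescue. Enho fell by 0.91 ± 0.24 (SE) on the log2 scale after knockdown (95% interval -1.42 to -0.40, limma adjusted p = 0.0551). It was past the study's threshold under all 22 alternative settings, with values from -1.04 to -0.77 and limma adjusted p from 0.0407 to 0.155. From knockdown to rescue the difference was 0.41 (95% interval -0.10 to 0.92, limma adjusted p = 0.537), and from control to rescue it was -0.50 (95% interval -1.01 to 0.01, limma adjusted p = 0.205). The first was past the threshold without knockdown replicate 4 (0.54) or rescue replicate 4 (0.56), and the second under 9 of the 22 alternatives. The Enho span, chr4:41638144-41640302 on GRCm38.p6, overlaps the gene Dnaic1 by 15 bp. Dnaic1 was at most 0.671 TPM, and Gm12406, whose exons overlap those of Enho on the opposite strand in GENCODE vM39, was at most 1.02 TPM.

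For the 2 members that passed the threshold, the genes most like them over the 12 mice are given as a description. Fetub followed Fgb (Pearson r = 0.953 over 12 mice, 0.926 for deviations from the group means), Gpld1 (0.952 and 0.909) and Rnase4 (0.946 and 0.899). Fgb encodes the fibrinogen β chain and is one of the hepatocyte markers used here. Enho followed Foxa3, a hepatocyte transcription factor gene (0.889 and 0.844), C630043F03Rik (0.862 and 0.660) and Mir7054 (0.855 and 0.902). C630043F03Rik and Mir7054 averaged only 2.41 and 1.89 TPM, not far above the filter of 1 TPM.

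Among the angiopoietin-like genes, Angptl8 had the widest spread. Its level was 36.6, 33.0, 16 and 25.6 TPM in control mice, 63.9, 71.2, 40.2 and 19.1 TPM in knockdown mice and 26.3, 26.7, 29.0 and 25.9 TPM in rescue mice. Knockdown mice 1, 2 and 3 were above all control and rescue mice, while knockdown mouse 4 was below all but 1 control mouse. The 4 rescue mice all lay between 25.9 and 29.0 TPM. The mean was 27.8 ± 9.12 TPM (SD, n = 4) in control, 48.6 ± 23.7 TPM (SD, n = 4) in knockdown and 27.0 ± 1.38 TPM (SD, n = 4) in rescue. The log2 fold change of 0.69 ± 0.35 (SE) after knockdown did not pass the threshold (95% interval -0.06 to 1.44, limma adjusted p = 0.290), nor did that of -0.67 from knockdown to rescue (95% interval -1.42 to 0.08, limma adjusted p = 0.510). Without knockdown replicate 4 these values were 1.07 and -1.05, both past the study's threshold, with limma adjusted p of 0.0551 and 0.280. Without control replicate 1 the knockdown minus control value was 0.84 and also past it. Other alternatives lowered the values, to 0.45 without knockdown replicate 2 or without control replicate 3 and to 0.38 with array weights. For rescue minus knockdown they gave -0.43 without knockdown replicate 2 and -0.25 with array weights. Array weights count samples unequally. Knockdown mouse 4 had the highest weight of its group, 1.42, beside 0.315, 0.493 and 0.661 for knockdown mice 1, 2 and 3.

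Angptl8 (chr9:21835510-21837347, plus strand) lies wholly within the span of Dock6 on the minus strand, with 1838 bp in common. In GENCODE vM39 (GRCm39), 0 of the 948 exon bases of Angptl8 are exon bases of Dock6. Dock6 was at 11.8, 10, 8.65 and 9.01 TPM in control mice, at 14.2, 15.6, 14.2 and 13.9 TPM in knockdown mice and at 11.8, 13.0, 12.7 and 12.7 TPM in rescue mice. Knockdown minus control was a log2 fold change of 0.52 (limma adjusted p = 0.0170). The libraries were strand-specific, but the strand setting of the counting is not given in the sources used here, so the part of Dock6 reads in the Angptl8 values was not tested.

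Angptl6 showed no such pattern. It stood at 12.8, 14.8, 12.6 and 11.8 TPM in control mice, at 21.2, 11.1, 18.3 and 12.4 TPM in knockdown mice and at 12.9, 10.2, 14.2 and 12.3 TPM in rescue mice. Knockdown mice 1 and 3 were above the other 10 animals, and knockdown mice 2 and 4 were not. The log2 fold change after knockdown was 0.22 (95% interval -0.16 to 0.60, limma adjusted p = 0.532). It was 0.07 without knockdown replicate 1 and 0.36 without knockdown replicate 2, in neither case past the threshold. Angptl6 shares 500 bp of its span with Shfl, which was at 60.9 TPM on average. Shfl had a log2 fold change of 0.52 after knockdown (limma adjusted p = 0.0723). It is on the opposite strand in GENCODE vM39, where 266 of the 1860 exon bases of Angptl6 are also exon bases of Shfl. The part of Shfl reads in the Angptl6 values was not tested.

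Inhbe was at 29.0, 18.2, 19.0 and 27.7 TPM in control mice, at 36.2, 36.5, 34.7 and 18.4 TPM in knockdown mice and at 31.4, 26.3, 21.3 and 18.9 TPM in rescue mice. As with Angptl8, knockdown mice 1, 2 and 3 were above every other animal and knockdown mouse 4 was near the bottom of the control range. The log2 fold change after knockdown was 0.39 (95% interval -0.12 to 0.90, limma adjusted p = 0.379). Without knockdown replicate 4 it was 0.62 and past the study's threshold (limma adjusted p = 0.12), and the lowest of the alternatives was 0.10, with array weights. The rescue minus knockdown value was -0.33, with -0.56 and past the threshold without knockdown replicate 4 and -0.10 with array weights. Leaving out that mouse brought the members past the threshold from 2 to 4 of 8, while over all tested genes 876 higher and 377 lower of 16378 became 930 and 423 of 16387, as the plot with each mouse left out in turn shows.

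**Figure D2:**
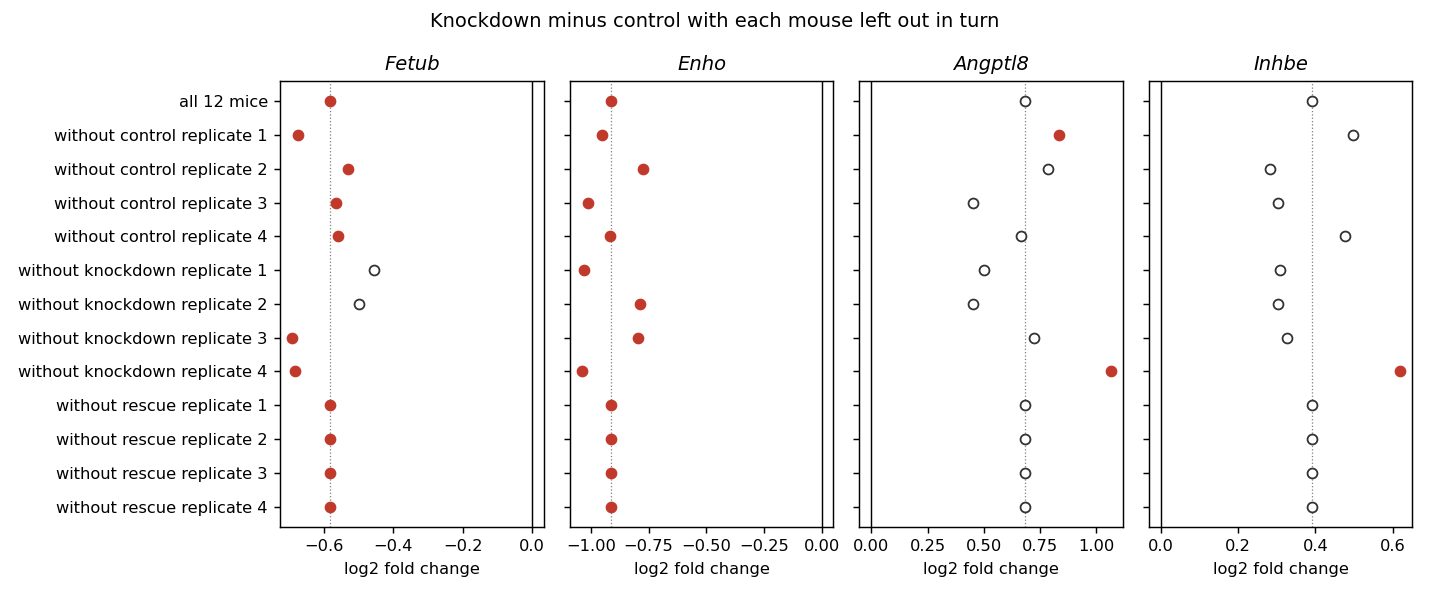
Knockdown minus control log2 fold change, on the log2(TPM + 1) scale, of 4 hepatokine genes with all 12 mice and with each mouse left out in turn. Filled points were past the study's threshold and open points were not, the dotted line marks the value with all mice, and each panel has its own scale. Enho was past it throughout, Fetub not without knockdown replicates 1 or 2, and Angptl8 and Inhbe reached their highest values, 1.07 and 0.62, without knockdown replicate 4.

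Gdf15 was at 16.3, 11.3, 12.3 and 13.6 TPM in control mice, at 27.1, 14.4, 14.4 and 15.4 TPM in knockdown mice and at 16.5, 21.0, 21.4 and 15.6 TPM in rescue mice. Knockdown mouse 1 stood apart from the other 3 of its group, and control mouse 1, the highest control, lay above 3 knockdown mice and 1 rescue mouse. The log2 fold change was 0.35 for knockdown minus control (95% interval -0.07 to 0.76, limma adjusted p = 0.334) and 0.44 for rescue minus control (95% interval 0.03 to 0.86, limma adjusted p = 0.171). Without knockdown replicate 1 the first value was 0.14. The second was short of the fold threshold with all mice, past it without control replicate 1 (0.54) or without rescue replicate 4 (0.52), and 0.26 with scaling by the median of ratios or by quantiles. With array weights it was 0.47 with a limma adjusted p of 0.0308, the only setting in which Gdf15 had an adjusted p under 0.05.

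No member was past the study's threshold in the comparisons with the rescue group. From knockdown to rescue, 0 of 8 were higher and 0 lower, where 2.33% and 0.672% of tested genes were past it. With limma, 0 of 16378 genes (0%) had an adjusted p under 0.05 there, while 1757 genes and 0 members had an unadjusted p under 0.05. From control to rescue, 0 of 8 were higher and 0 lower, beside 6.84% and 0.641% of tested genes. There 0 members had a limma adjusted p under 0.05, beside 2.15% of tested genes. The unadjusted p was under 0.05 for 1 of the 8, Gdf15, and for 4149 of the 16378 tested genes. The 352 genes behind that 2.15% became 3 to 3184 under the alternative settings. Both knockdown comparisons use the same knockdown mice and both control comparisons the same control mice. Side by side, the log2 fold changes for knockdown minus control and rescue minus control were -0.91 and -0.50 for Enho, -0.58 and -0.35 for Fetub, 0.69 and 0.02 for Angptl8, 0.39 and 0.06 for Inhbe and 0.35 and 0.44 for Gdf15.

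**Figure D3:**
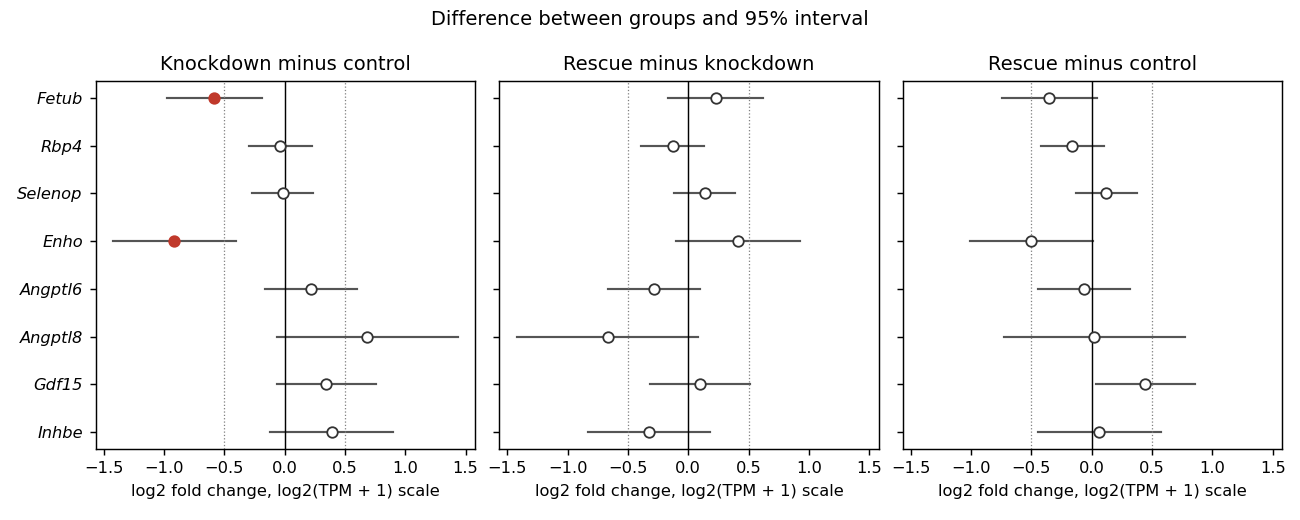
Log2 fold change of each hepatokine gene on the log2(TPM + 1) scale (points) with its 95% interval from limma (lines) in the 3 comparisons. Filled points were past the study's threshold, and dotted lines mark 0.5 in either direction. Only Enho (-0.91) and Fetub (-0.58) after knockdown were past it.

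The 20 features of highest mean TPM took 30.6 ± 1.60% of all TPM (SD, n = 4) in control, 29.2 ± 3.51% (SD, n = 4) in knockdown and 25.9 ± 0.867% (SD, n = 4) in rescue, and over all tested genes the median change was 0.09 after knockdown and 0.17 from control to rescue. Scaling by the median of ratios brought both to -0.003 and moved the share of genes past the threshold that were higher from 69.9% to 53.3% after knockdown, from 77.6% to 59.6% from knockdown to rescue and from 91.4% to 67.2% from control to rescue. Relative to that shift, Enho and Fetub kept their direction and stayed past the threshold after knockdown, and from control to rescue both were past it, with -0.69 for Enho and -0.55 for Fetub. The same scaling put Angptl8 past it from knockdown to rescue, at -0.76.

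Of 38 other liver-secreted regulators, 37 were tested. After knockdown 3 rose past the study's threshold and 4 fell, beside 5.35% and 2.30% of all tested genes, and the median was 0.03 beside 0.09 over all tested genes. With the median of ratios 2 rose and 5 fell, with a median of -0.07, and with quantiles 2 rose and 4 fell, with a median of -0.05. Igf1, the growth factor gene, was at 169.8, 161.3, 208.9 and 168.1 TPM in control mice and at 72.1, 82.0, 123.8 and 108.3 TPM in knockdown mice. Every knockdown mouse was below every control mouse for Igf1, and the fall between groups was 0.89 ± 0.16 (SE, limma adjusted p = 0.0139). Hamp, which encodes the iron hormone hepcidin, fell by 0.71 (limma adjusted p = 0.0616), and Fgl1 and Nucb2 fell by 0.63 and 0.51. Among those that rose were Leap2, whose product opposes ghrelin at its receptor, by 0.85 (limma adjusted p = 0.0290) and Inhba by 0.57 (limma adjusted p = 0.0605). From knockdown to rescue, Igf1 and Nucb2 were the 2 genes of this list past the threshold, with 0.52 and 0.58, and 0 fell.

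Fgf21 and Angptl4, the liver-secreted regulators left out of the 8, were not past the threshold. Fgf21 was at 6.5, 3.07, 3.57 and 5.75 TPM in control mice, at 12.9, 17.0, 11.2 and 2.5 TPM in knockdown mice and between 5.15 and 7.70 TPM in rescue mice. As for Angptl8 and Inhbe, knockdown mice 1, 2 and 3 were above all other animals and knockdown mouse 4 was not, here the lowest of all 12. The log2 fold change was 0.87 (limma adjusted p = 0.252). Angptl4 had 0.20 (limma adjusted p = 0.350). Ahsg, which encodes fetuin-A, the relative of fetuin-B, had -0.37 at a mean of 4120 TPM (limma adjusted p = 0.175).

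Receptors and partners of the members' products were next compared. Of 26 such genes, 19 were tested, 1 rose past the threshold after knockdown, 0 fell, and the median was 0.15. The shares over all tested genes, 5.35% higher and 2.30% lower, also apply to the list counts after knockdown that follow. The one that rose was Acvr2b, a type II activin receptor gene, at 0.70 (limma adjusted p = 0.0364), with 4.82 to 6.58 TPM in control and 6.77 to 12.2 TPM in knockdown mice. Lpl, which encodes lipoprotein lipase, had -0.14 (limma adjusted p = 0.830). Several receptors were not tested because their mean was below 1 TPM, and without read counts a listed 0 cannot be read as absence. Gfral was listed at 0 in all 12 mice and Stra6, a retinol-binding protein receptor gene, at 0 in all but 1. Acvr1c and Lrp8, a selenoprotein P receptor gene, averaged 0.0859 and 0.263 TPM. Stra6l and Lrp2 of the same list were tested. Stra6l averaged 35.8 TPM and had -0.09 after knockdown (limma adjusted p = 0.711). Lrp2 averaged 1.06 TPM and had 0.46 (limma adjusted p = 0.155).

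In the activin and inhibin family, 15 of 18 genes were tested and 2 rose past the threshold, Acvr2b and Inhba, while 0 fell, with a median of 0.12. With scaling by the median of ratios or by quantiles, 1 was past it in place of 2. Inhbc, the close relative of Inhbe, had -0.23 (limma adjusted p = 0.205). Among selenoproteins and genes of selenocysteine synthesis, 26 of 27 were tested, 1 rose and 0 fell, with a median of 0.15. That gene was Gpx3, at 0.56 (limma adjusted p = 0.199), and with either of those scalings 0 were past it. The abundant Gpx1 and Sephs2 had -0.16 and 0.12.

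Genes of retinol handling were read beside Rbp4, the gene of the plasma carrier, which had -0.03 after knockdown. Of 27 genes of retinol transport and metabolism, 20 were tested, 4 rose past the threshold after knockdown and 0 fell, with a median of 0.31. Under each of the 3 scalings, 3 rose in place of 4. Cyp26a1 and Cyp26b1, which encode enzymes that break down retinoic acid, rose by 1.06 (limma adjusted p = 0.0229) and 1.01 (limma adjusted p = 0.0502). Rdh11 and Retsat, which encode retinoid-converting enzymes, rose by 0.82 (limma adjusted p = 0.0445) and 0.54 (limma adjusted p = 0.213). From knockdown to rescue, Cyp26b1 fell by 0.98 and was the 1 gene of the list past the threshold. Ttr, whose product binds retinol-binding protein 4 in plasma, had 0.14 after knockdown (limma adjusted p = 0.718).

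The genes of the integrated stress response, which can induce Gdf15, gave no call after knockdown. Of 25 genes, 21 were tested, and 0 rose and 0 fell past the threshold, beside 5.35% and 2.30% of all tested genes. In a list of this size 0 calls is near those shares. The median was 0.08, beside 0.09 over all tested genes. The most abundant, Cebpb and Shmt2, had -0.06 and 0.11. From control to rescue 1 gene of the list, Sesn2, was higher past the threshold, by 0.51 (limma adjusted p = 0.0641). Of 23 lipogenic regulators and their targets, 15 rose past the threshold after knockdown and 0 fell. The median was 0.95, and 14 genes rose in place of 15 under the median of ratios or quantiles. Thrsp rose by 2.06, Elovl6 by 1.99, Fasn by 1.87 and Acly by 1.81, with limma adjusted p of 0.00677, 0.00677, 0.00995 and 0.00807. From knockdown to rescue 5 of the 23 fell past it, Thrsp, Elovl6, Fasn, Acly and Me1, and from control to rescue 12 were higher. The plot of lists shows each gene.

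**Figure D4:**
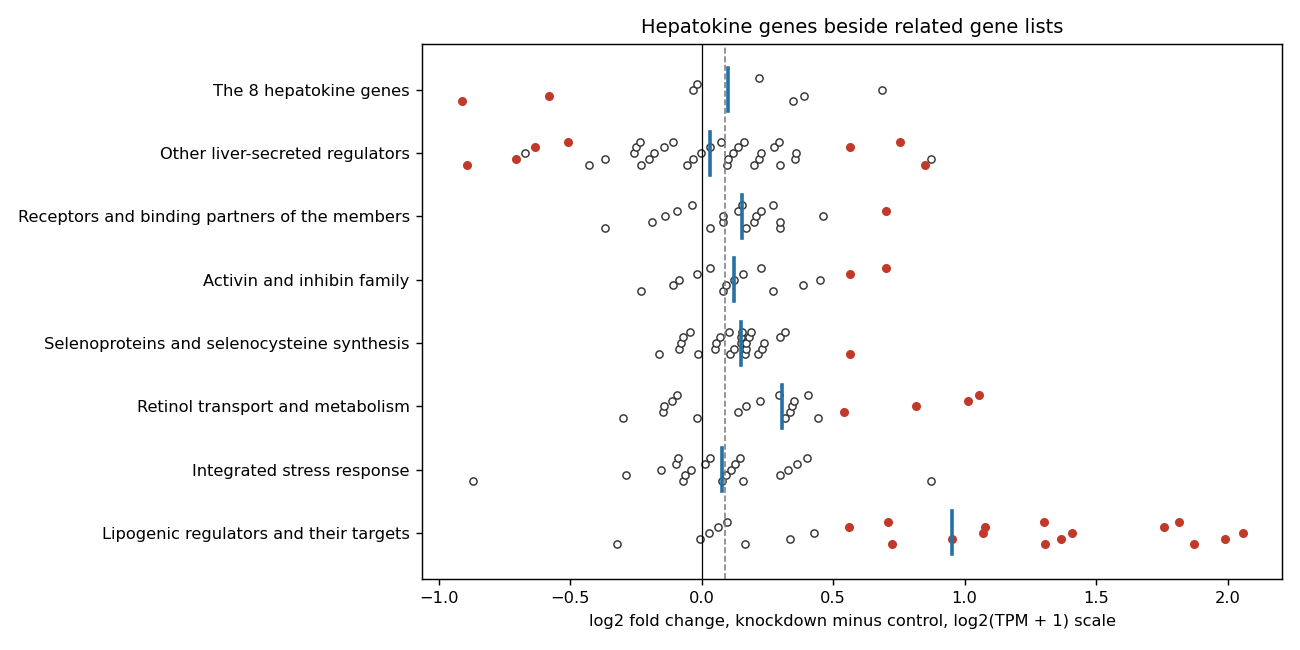
Knockdown minus control log2 fold change, on the log2(TPM + 1) scale, of every tested gene of the 8 hepatokine genes and of 7 related lists. Each point is a gene, filled where it was past the study's threshold and placed vertically only to keep points apart, blue bars are list medians and the dashed line is the median of all tested genes (0.09). The lipogenic list has its median at 0.95, and the hepatokine genes lie on both sides of 0.

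Markers of liver cell types were read beside these values, since in bulk RNA fewer cells of a type and less RNA per cell cannot be told apart. The hepatocyte list (Alb the most abundant) was tested in full. After knockdown Alb, Ttr, Serpina1a and Hnf4a of this list had 0.02, 0.14, -0.28 and -0.01. The other 3 of the list's 7 genes fell past the threshold, Apoa1 by 0.60, Tat by 0.80 and Fgb by 0.52, and 0 rose. Its summed level was 80340, 109200, 92730 and 73770 TPM in control mice, 84860, 77870, 92450 and 79850 TPM in knockdown mice and 65630, 73870, 79370 and 71380 TPM in rescue mice, so the control and knockdown ranges overlapped. The part of these shifts in the Fetub and Enho values was not tested.

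Of the other lists, Kupffer cells and macrophages had 1 of 8 tested genes lower, Marco. The endothelial list had 1 of 7 higher, Stab2, and the cholangiocyte list 1 of 4 higher, Sox9. Stellate cell, T and NK cell, B cell, neutrophil, erythroid and pancreatic acinar lists had 0 past the threshold after knockdown. In rescue minus knockdown the neutrophil markers S100a8 and S100a9 were lower past it, by 0.78 and 0.84, and Gzmb of the T and NK cell list was higher, by 1.03. In rescue minus control Apoa1 was lower by 0.60, Tat by 0.81 and Marco by 0.93, and no other marker was past it. The adipocyte list, of interest because fat tissue also makes Angptl8, had 2 tested genes, of which Plin4 rose by 0.73. Its sum was 27.4, 15.5, 22.9 and 20.3 TPM in control, 46.0, 30.5, 60.8 and 25.4 TPM in knockdown and 27.0, 25.9, 28.7 and 33.4 TPM in rescue mice. Plin4 was its most abundant gene on average, but the highest sum, in knockdown mouse 3, came mainly from Cfd, at 37.9 TPM there and at most 10.5 TPM in the other mice. Lep was listed at 0 in all mice, and Adipoq was at most 0.215 TPM.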

How the data were processed

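Strand-specific liver RNA libraries were trimmed by the authors with fastp 0.23.2, checked with FastQC 0.11.8, aligned with HISAT2 2.2.1.0 to GRCm38.p6, counted on GENCODE VM24 genes with featureCounts (Subread 2.0, per the submitters' notes) and deposited as TPM. The strand setting of the counting is not stated, each column sums to the same total, so depth is unknown, and 37 of 37 mitochondrial features are listed at 0. The labels do not state that each sample is a separate mouse, and p-values measure the spread between these samples. log2(TPM + 1) was analysed in R 4.3.3 with limma 3.58.1 for features with a mean of at least 1 TPM, in 1 model of 3 groups, with moderated variances that follow the mean, and the code was tested on simulated data. Named genes were the members, the genes of each list past the study's threshold (up to the 4 largest changes, otherwise the most abundant), partners, and the 3 genes most like each member past it. Some genes under this rule are not described here. Others, among them Fgl1, Nucb2, Me1 and the markers past the threshold, were named after their values were seen. The members and lists were chosen with earlier results of these data known. Alternatives were a pseudocount of 0.1, no filter, a minimum mean of 5 TPM, 3 scalings, 2 groups only, no trend, array weights, a replicate block and leaving out each mouse. Applying the scalings to the lists was chosen after seeing the data.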

Additional observations from a re-analysis of the deposited data

Results flagged for a closer look

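Each of 57 groups of 4 mice, covering the 8 members and the 11 marker lists, was checked for a mouse far from the rest, by dividing its gap to the nearest other mouse by the range of the group. The limit is one that chance passes in about 1 in 20 groups, and 3 passed it, all of them knockdown groups. Inhbe was at 18.4 TPM in knockdown replicate 4, with a gap of 0.9 of the range. Gdf15 was at 27.1 TPM in knockdown replicate 1, with a gap of 0.917 of the range. Rbp4 was at 3103 TPM in knockdown replicate 2, with a gap of 0.871 of the range.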

How the results depend on the processing

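Across all alternatives 477 values kept their call and direction, 23 became past the study's threshold, 3 lost it and 25 changed sign. The cause was not tested. In rescue minus control, Angptl8 was -0.175 with the median of ratios, -0.16 with quantiles and -0.072 without the 20 highest features, from 0.019. Inhbe was -0.13, -0.122 and -0.027 in that order and -0.005 with array weights, from 0.063, and Selenop -0.082 with the median of ratios, from 0.12. In knockdown minus control, Rbp4 was 0.059 with quantiles and 0.003 with array weights, from -0.034, and Selenop 0.158 and 0.02, from -0.017. In rescue minus knockdown with quantiles, Gdf15 was -0.003, from 0.097, and Selenop -0.032, from 0.137.

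With each mouse left out in turn, rescue minus control ran from -0.129 to 0.017 for Angptl6, -0.213 to 0.169 for Angptl8 and -0.061 to 0.173 for Inhbe, and knockdown minus control from -0.078 to 0.058 for Rbp4 and -0.072 to 0.037 for Selenop.

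Members past the threshold in knockdown minus control were 2, 1 with array weights, 3 with a replicate block and 1 to 4 with a mouse left out. In rescue minus control they were 0, 2 with the median of ratios, 1 with quantiles, 1 without the 20 highest features, 1 with only the 2 groups compared and 0 to 1 with a mouse left out. In rescue minus knockdown they were 0, 1 with the median of ratios, 1 with quantiles, 1 with a replicate block and 0 to 3 with a mouse left out.

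Of tested genes, 1253 were past the threshold in knockdown minus control and 765 with a minimum mean of 5 TPM. In rescue minus control 1226 were, 708 with that minimum, 723 with the median of ratios and 701 with quantiles. In rescue minus knockdown 492 were, 242 with that minimum and 360 to 843 with a mouse left out. With a limma adjusted p under 0.05, 529 genes in knockdown minus control became 33 with only the 2 groups compared and 167 to 1055 with a mouse left out. In rescue minus control 352 became 11 with the median of ratios or quantiles, 3184 with array weights and 3 to 1068 with a mouse left out, and in rescue minus knockdown 0 became 0 to 2.

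Samples of different groups share only a replicate number. With it as a block, 1275 genes were past the threshold in knockdown minus control, 516 in rescue minus knockdown and 1239 in rescue minus control. Angptl8 was then past it at 0.69 and -0.67 in the first 2 of these. Of 12 pairs of same-numbered samples from 2 groups, 2 had a correlation over 0.1, and in 4 a sample correlated best with its own number in the other group.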
